A study of Drosophila melanogaster with 9 samples.

Results

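The Attacin, Diptericin and Drosocin genes of Drosophila melanogaster encode secreted or intracellular antimicrobial effectors whose expression in flies is driven mainly by the Imd pathway. The 7 genes AttA, AttB, AttC, AttD, DptA, DptB and Dro were taken by their symbols from a table of 17562 counted genes in S2R+ cells, and all 7 symbols were found. AttA and AttB are near-identical copies, so their summed counts were analysed beside the single genes.

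The Imd pathway is the branch of fly innate immunity that responds to DAP-type peptidoglycan, a wall component of Gram-negative and some other bacteria. The receptor PGRP-LC binds it at the cell surface, the adaptor imd and the caspase Dredd pass the signal on, and the NF-kappaB factor Relish is cleaved and enters the nucleus, where it activates antimicrobial peptide genes. Attacins are glycine-rich proteins, Diptericins are smaller peptides with a related glycine-rich domain, and Drosocin is a short proline-rich peptide. In flies these families act mainly against Gram-negative bacteria, and fat body and hemocytes are their best known sources after infection.

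S2R+ is an embryonic, hemocyte-like line of the Oregon-R strain. The control line was grown in MB10, that is M3 medium with bactopeptone, yeast extract (BPYE) and 10% fetal serum. The media M3 + 10% FEx and, with less extract, M3 + 2.5% FEx held neither serum nor added BPYE and were supplemented with fly extract (FEx), a heated and filtered homogenate of adult Oregon-R-modENCODE flies. Cells were moved to FEx stepwise and the M3 + 2.5% FEx line came from the M3 + 10% FEx line. There was 1 line per medium, so the medium, the loss of serum and BPYE and the adaptation of a line cannot be told apart. The 3 libraries of each medium were triplicate collections, and p-values measure the spread between them. In bulk RNA, more cells with a transcript and more RNA per cell cannot be told apart either.

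The 9 libraries held 20694827 to 29076620 counts each. Replicates differed by more than counting noise in all 9 pairs, where chi-square divided by its degrees of freedom ran from 10.4 to 70.7. CPM, used throughout, is a count scaled to a fixed library size after edgeR's TMM normalization. Of 12 hemocyte markers, 11 passed edgeR's expression filter, and the summed level of the 12 in CPM was 1450 to 1630 in MB10, 1360 to 1430 in M3 + 2.5% FEx and 1250 to 1370 at 10% FEx. Both FEx media lay below MB10 in this sum without overlap, and the part of this difference in the results was not tested. The lower sum rested on the marker Pxn, at 377, 162 and 89.3 CPM in the same order. The marker ush rose, at 336, 473 and 512 CPM, so the sum does not speak for each marker. By edgeR's adjusted p, described below, 1 of the 11 was higher and 2 were lower in M3 + 2.5% FEx against MB10. At 10% FEx 2 were higher and 6 lower. Of all genes tested, 22.0% were higher and 22.2% lower in M3 + 2.5% FEx and 25.5 and 27.6% at 10% FEx. The hemocyte marker NimC1 had 0 to 3 counts. Of 41 markers of adult fat body, ovary, eye, muscle, gut, testis and accessory gland, tissues present in the flies that were homogenized, 38 did not pass and had at most 13 counts in any library. Their summed CPM was at most 2.75 in a library of MB10, 1.90 in M3 + 2.5% FEx and 3.18 at 10% FEx. The 3 that passed were the eye marker norpA and the muscle markers Mlc2 and TpnC4, and all 41 together summed to 174 to 210, 215 to 242 and 184 to 197 CPM in the same order. The yolk protein genes Yp1, Yp2 and Yp3 and the other fat body and ovary markers did not exceed 1.22 CPM in sum in any library.

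All 7 genes were higher in both FEx media than in MB10. A gene was called when the edgeR quasi-likelihood F test gave a Benjamini-Hochberg adjusted p under 0.05 over the 8705 genes tested and the log2 fold change was beyond 1 in either direction. In M3 + 2.5% FEx 7 of 7 genes were called higher, where 5.59% of all genes tested were called in that direction, and their median log2 fold change was 6.77 against -0.04 for all genes. In M3 + 10% FEx 7 of 7 were called higher, where 7.34% of all genes tested were, with a median of 5.51. AttC had 0 counts in MB10 and its fitted fold change is no measured size. With AttC set to its lower bound the medians were 5.39 and 4.79. Both comparisons use the same MB10 libraries. All 7 genes passed edgeR's expression filter, but 6 of them (AttA, AttB, AttC, DptA, DptB and Dro) reached its minimum in too few MB10 libraries and passed only through their FEx libraries. For these 6 the higher direction was in part set by the filter, and the counts and medians over the 7 genes are a description that supports nothing further. AttD alone had at least 10 counts in every library. With no filter on low counts, 7 of 7 genes were called higher in each FEx medium.

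Expressed as a share of the whole library, the 7 genes together held 78 to 87 counts in MB10, or 3.43 to 3.89 CPM without scaling. In M3 + 2.5% FEx they held 5174 to 5951 counts, or 218 to 250 such CPM. In M3 + 10% FEx they held 2633 to 3825 counts, or 119 to 132 CPM. The 3 media were separated by this sum without overlap, with M3 + 2.5% FEx highest.

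**Figure D1:**
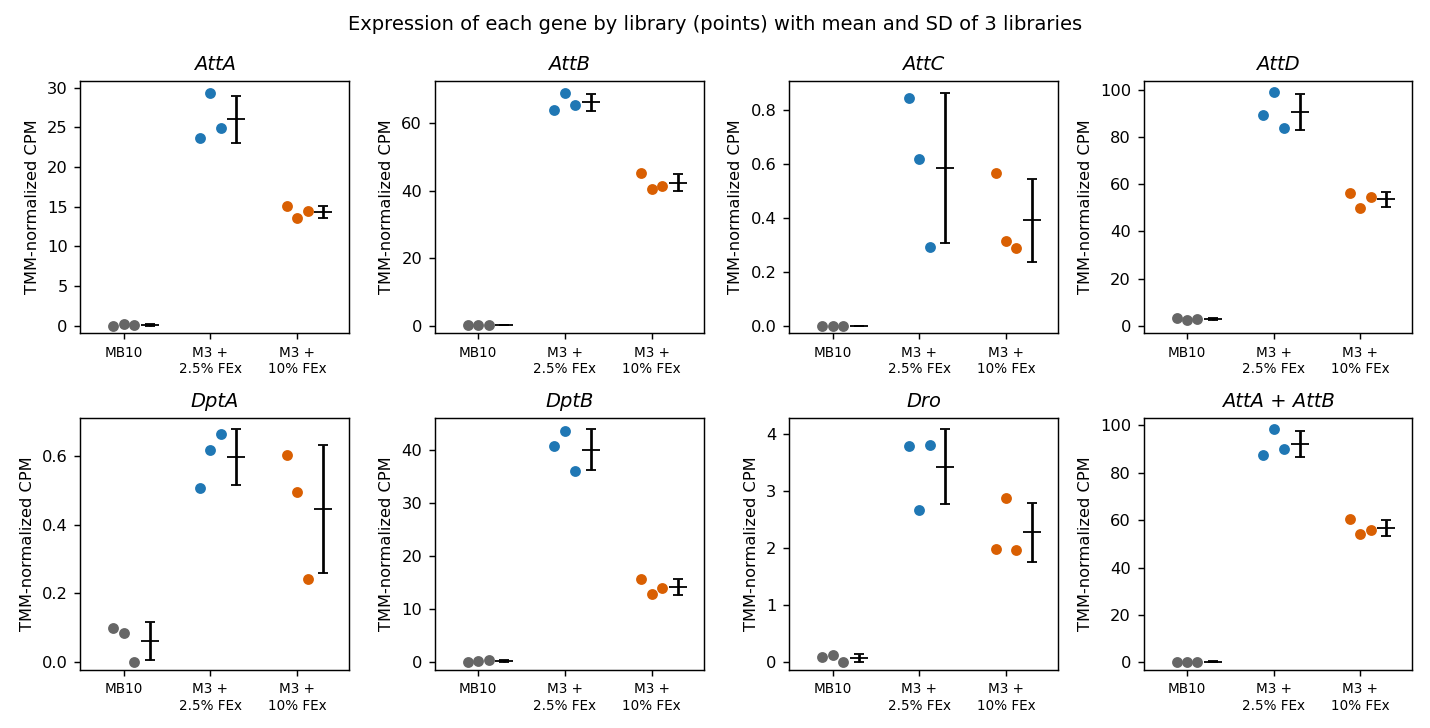
TMM-normalized CPM (counts relative to library size, scaled by edgeR) of each of the 7 genes and of AttA + AttB in the 3 libraries of each medium, with the mean and SD beside the points and a separate linear axis for each gene. The MB10 points lie at or near 0 CPM for every gene, AttD being highest there at 2.98 CPM, and the M3 + 2.5% FEx points lie above the M3 + 10% FEx points for AttA, AttB, AttD and DptB while those of AttC, DptA and Dro overlap.

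AttA (FBgn0012042) lies on chromosome arm 2R from 14747362 to 14748215, plus strand, with 2 exons, and AttB (FBgn0041581) on 2R from 14749223 to 14750165, plus strand, with 2 exons. The copies are 1007 bases apart. AttA had 0, 4 and 2 counts in the MB10 libraries, 561, 714 and 600 in M3 + 2.5% FEx and 426, 301 and 300 at 10% FEx. No library of MB10 came near those of the FEx media. As TMM-normalized CPM, this was 0.0876 ± 0.0864 in MB10, 26.0 ± 2.98 in M3 + 2.5% FEx and 14.4 ± 0.769 at 10% FEx (SD, n = 3). From the pooled counts, AttA was 283-fold higher in M3 + 2.5% FEx (95% exact interval 130 to 771) and 157-fold higher at 10% FEx (71.8 to 428). These intervals, and the exact and Wilson intervals of pooled counts given below, cover counting error only and not the spread between libraries. The fitted log2 fold changes were 8.06 (SE 0.26, adjusted p = 3.21e-10) and 7.21 (SE 0.28, adjusted p = 1.12e-09). They rest on 6 counts in MB10. Without MB10 replicate 2, which held 4 of these, they were 8.96 and 8.10. They fell to 7.57 and 6.72 without MB10 replicate 1, which held 0.

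AttB was the more abundant copy. It had 5, 4 and 6 counts in MB10, 1515, 1678 and 1575 in M3 + 2.5% FEx and 1278, 900 and 856 at 10% FEx. Its level was 0.232 ± 0.0518, 66.1 ± 2.59 and 42.3 ± 2.55 CPM (SD, n = 3) in the same order. The media did not overlap. AttB rose by a log2 fold change of 8.13 (SE 0.14, adjusted p = 1.46e-12) in M3 + 2.5% FEx and 7.49 (SE 0.14, adjusted p = 2.27e-12) at 10% FEx, which ranked 3 and 4 by size among the 8705 genes tested.

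How reads that fit both copies were counted is not given in the sources used here, so the split between AttA and AttB is uncertain and their sum is the firmer measure. AttA + AttB had 5 to 8 counts in the MB10 libraries, 2076 to 2392 in M3 + 2.5% FEx and 1156 to 1704 at 10% FEx. With both copies counted as 1 gene, levels were 0.319 ± 0.0593, 92.1 ± 5.57 and 56.7 ± 3.25 CPM (SD, n = 3) in the same order. The log2 fold change of the sum was 8.14 (SE 0.13, adjusted p = 9.36e-13) in M3 + 2.5% FEx and 7.44 (SE 0.13, adjusted p = 1.49e-12) at 10% FEx. AttA made up 27.0, 29.8 and 27.6% of the pair's counts in the M3 + 2.5% FEx libraries and 25.0, 25.1 and 26.0% in those of M3 + 10% FEx. The pooled shares were 28.2% (95% Wilson interval 27.2 to 29.3%) and 25.3% (24.0 to 26.6%), a small difference in which the libraries did not overlap. In MB10 the share was 28.6%, from 6 of 21 counts, with an interval of 13.8 to 50.0% that spans both.

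AttD (FBgn0038530), the only gene of the group on 3R (17625268 to 17626086, plus strand, 2 exons), encodes an Attacin that is predicted to lack a secretion signal. It was the only gene of the 7 with more than 12 counts in any MB10 library. AttD had 66, 60 and 67 counts in MB10, 2116, 2407 and 2017 in M3 + 2.5% FEx and 1588, 1111 and 1133 at 10% FEx. Levels were 2.98 ± 0.365, 90.7 ± 7.73 and 53.6 ± 3.21 CPM (SD, n = 3), without overlap between media. AttD had the smallest standard errors of the 7 genes against MB10, with a log2 fold change of 4.93 (SE 0.11, adjusted p = 1.20e-11), or 30.5-fold, in M3 + 2.5% FEx. In M3 + 10% FEx it was 4.18 (SE 0.11, adjusted p = 4.11e-11), or 18.1-fold.

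AttC (FBgn0041579, 2R from 13393705 to 13394667, plus strand, 2 exons) was not detected in MB10 and was low elsewhere. Its counts were 0 in all 3 MB10 libraries, 20, 15 and 7 in M3 + 2.5% FEx and 16, 7 and 6 at 10% FEx. A count of 0 allows up to 3 counts, taken here over the 3 MB10 libraries together, which stood for 0.046 CPM. AttC reached 0.584 ± 0.279 and 0.390 ± 0.153 CPM (SD, n = 3) in the FEx media. Against 3 counts over the MB10 group the rise in M3 + 2.5% FEx was at least 12.7-fold. That in M3 + 10% FEx was at least 8.86-fold. These bounds take the 42 and 29 counts of the FEx media as measured, and with the lower 95% exact Poisson limit of those counts they were 9.13-fold and 5.93-fold. The edgeR F tests of no change gave adjusted p = 0.000961 and 0.00190, which belong to the fitted fold changes and do not test the bounds. AttC passed the filter only through its FEx libraries, so the filter in part set its higher direction. The gene CG4744 overlaps AttC on the other strand and had 0 to 6 counts per library. Whether counting used the strand is not given in the sources used here, so reads of the 2 genes cannot be told apart where they overlap.

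The Diptericin genes DptA (FBgn0004240, 2R from 18865765 to 18866260, plus strand, 1 exon) and DptB (FBgn0034407, 2R from 18867391 to 18867895, plus strand, 2 exons) lie 1130 bases apart and were expressed at very unequal levels in the FEx media. In adult flies DptA is known for defence against Providencia rettgeri and DptB for defence against Acetobacter. DptB had 3, 5 and 12 counts in MB10, 964, 1057 and 867 in M3 + 2.5% FEx and 444, 285 and 292 at 10% FEx. The media were separated without overlap, at 0.303 ± 0.209, 40.0 ± 3.79 and 14.2 ± 1.45 CPM (SD, n = 3). Its log2 fold change was 7.00 (SE 0.22, adjusted p = 2.53e-10) in M3 + 2.5% FEx and 5.51 (SE 0.24, adjusted p = 2.94e-09) at 10% FEx. The pooled counts gave 131-fold (95% exact interval 84.4 to 214) and 46.8-fold (30.1 to 76.9). MB10 replicate 3 held 12 of the 20 MB10 counts, and without it the log2 fold changes were 7.71 and 6.22. They were 6.73 and 5.24 without MB10 replicate 1, which held 3. The gene CG43109 overlaps DptB on the other strand and had 0 to 3 counts per library.

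DptA remained rare in every medium, with 2, 2 and 0 counts in MB10, 12, 15 and 16 in M3 + 2.5% FEx and 17, 11 and 5 at 10% FEx. That corresponds to 0.0623 ± 0.0544, 0.596 ± 0.0805 and 0.446 ± 0.185 CPM (SD, n = 3). Every FEx library was above every MB10 library, and the FEx media overlapped. Pooled counts were 9.72-fold higher in M3 + 2.5% FEx (95% exact interval 3.53 to 37.3) and 7.56-fold higher at 10% FEx (2.69 to 29.4), and the fitted log2 fold changes were 3.17 (SE 0.58, adjusted p = 0.00103) and 2.81 (SE 0.62, adjusted p = 0.00233). DptA held 1.23, 1.40 and 1.81% of the Diptericin counts in the M3 + 2.5% FEx libraries and 3.69, 3.72 and 1.68% in M3 + 10% FEx, ranges that overlap. In MB10 it held 4 of 24 counts, or 16.7% (95% Wilson interval 6.68 to 35.9%).

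Dro (FBgn0010388, 2R from 14745961 to 14746714, plus strand, 1 exon), which encodes Drosocin, was intermediate. It had 2, 3 and 0 counts in MB10, 90, 65 and 92 in M3 + 2.5% FEx and 56, 64 and 41 at 10% FEx. Levels were 0.0767 ± 0.0680, 3.43 ± 0.656 and 2.28 ± 0.521 CPM (SD, n = 3), so the FEx media were far above MB10 and overlapped each other. The pooled counts were 44.7-fold higher in M3 + 2.5% FEx (95% exact interval 18.9 to 139) and 29.5-fold higher at 10% FEx (12.4 to 92.1). Fitted log2 fold changes were 5.39 (SE 0.43, adjusted p = 1.09e-06) and 4.79 (SE 0.47, adjusted p = 4.70e-06). Without MB10 replicate 2 they were 6.04 and 5.44, and without MB10 replicate 3 they were 4.82 and 4.22.

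**Figure D2:**
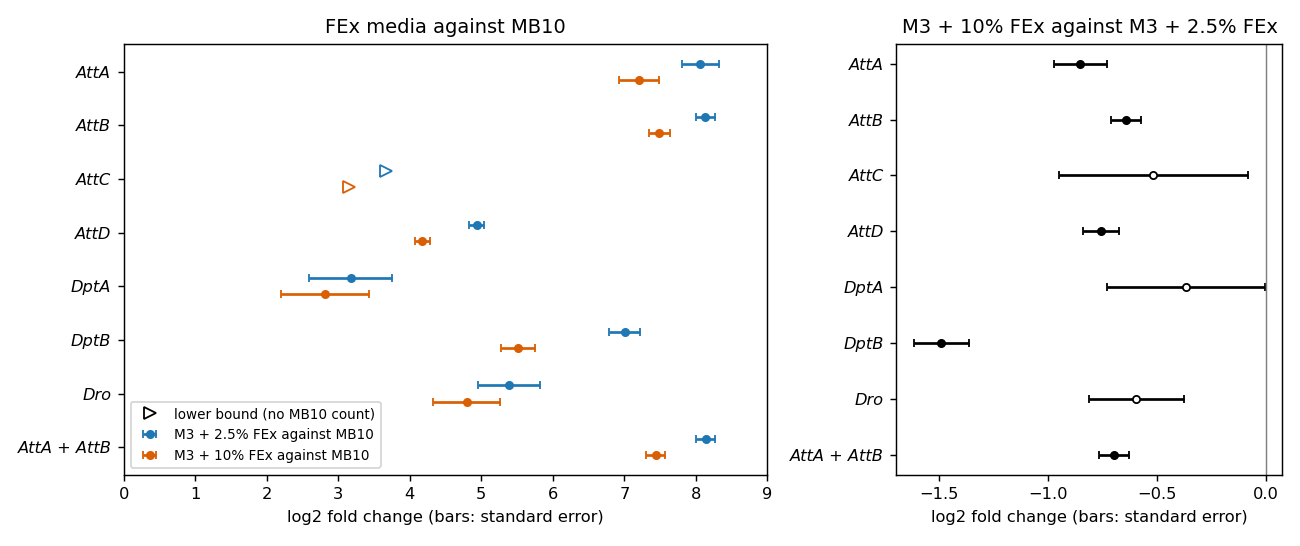
Log2 fold change (points, with the standard error as bars) of each gene and of AttA + AttB in each FEx medium against MB10 (left) and in M3 + 10% FEx against M3 + 2.5% FEx (right), where filled points have an adjusted p under 0.05. Open triangles mark lower bounds for AttC, which had no MB10 count. Values on the left run from 2.81 to 8.14 apart from these bounds, and on the right all lie below 0, with DptB lowest at -1.49.

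The libraries of both FEx media were compared directly to ask whether the medium with more extract had more or less of these transcripts. All 7 estimates were below 0. By the adjusted p alone, 4 of 7 genes were lower in M3 + 10% FEx (AttA, AttB, AttD and DptB), where 11.3% of all genes tested were lower. With the fold threshold as well, 1 of 7, DptB, was called lower, where 1.05% of all genes tested were. The median over the 7 genes was -0.64 and over all genes -0.00 on the log2 scale.

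DptB changed most, with a log2 fold change of -1.49 (SE 0.13, adjusted p = 8.44e-06), or 2.81-fold lower with more extract. AttA was 1.81-fold lower, with a log2 fold change of -0.85 (SE 0.12, adjusted p = 0.000474). AttD was 1.69-fold lower at -0.76 (SE 0.08, adjusted p = 6.39e-05). All libraries of the M3 + 10% FEx medium lay below those of M3 + 2.5% FEx for these genes and for AttB. AttB was 1.56-fold lower at -0.64 (SE 0.07, adjusted p = 6.58e-05), and AttA + AttB 1.62-fold lower at -0.70 (SE 0.07, adjusted p = 3.61e-05). The 3 rarer genes did not pass: the log2 fold changes were -0.59 for Dro (SE 0.22, adjusted p = 0.0717), -0.52 for AttC (SE 0.43, adjusted p = 0.440) and -0.37 for DptA (SE 0.36, adjusted p = 0.511). At the 5 to 20 counts per FEx library of AttC and DptA, a drop of the size measured for AttB was not detectable. Dro came under an adjusted p of 0.05 without M3 + 10% FEx replicate 2 (-0.79, adjusted p = 0.0461) and without MB10 replicate 3 (-0.60, adjusted p = 0.0250).

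Levels between genes were compared as CPM per kb of exon, which corrects for exon lengths of 449 bases in DptB to 900 bases in AttC. In M3 + 2.5% FEx the order was AttD (122 ± 10.5), DptB (89.2 ± 8.44), AttB (75.2 ± 2.94), AttA (32.9 ± 3.77), Dro (4.55 ± 0.870), DptA (1.20 ± 0.162) and AttC (0.649 ± 0.310 CPM per kb, SD, n = 3). No neighbours in that order overlapped, although DptB and AttB were close, with the lowest DptB library at 80.1 and the highest AttB library at 78.5 CPM per kb. In M3 + 10% FEx DptB fell behind AttB, and the order was AttD (72.3 ± 4.33), AttB (48.2 ± 2.90), DptB (31.6 ± 3.23), AttA (18.2 ± 0.975), Dro (3.02 ± 0.692), DptA (0.900 ± 0.374) and AttC (0.434 ± 0.170 CPM per kb). Only DptA and AttC overlapped there. The places of AttA and AttB in both orders, also beside DptB, depend on the uncertain split of reads between these copies. In MB10 AttD (4.01 ± 0.492 CPM per kb) and DptB (0.674 ± 0.466 CPM per kb) led, and from AttB (0.263 CPM per kb) down the ranges overlapped.

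**Figure D3:**
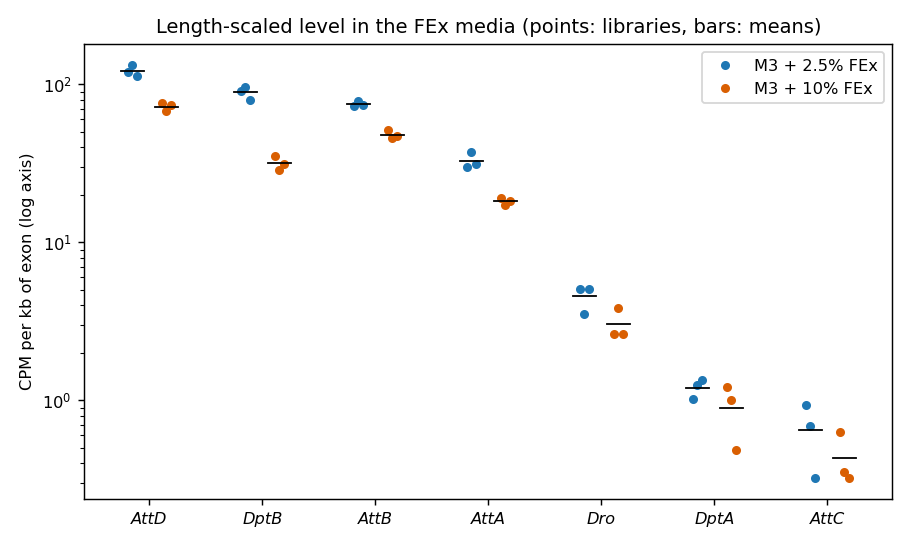
Level of each gene in CPM per kb of exon on a log axis, in the 3 libraries (points) and as the mean (bars) of each FEx medium. AttD is highest in both media at 122 and 72.3 CPM per kb, AttC is lowest at 0.649 and 0.434 CPM per kb, and DptB stands above AttB in M3 + 2.5% FEx but below it in M3 + 10% FEx. The places of AttA and AttB depend on the uncertain split of reads between these copies.

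The make-up of the group differed between media. AttD held 79.5% of the counts of the 7 genes in MB10 as the mean of 3 libraries, 39.8% in M3 + 2.5% FEx and 42.0% at 10% FEx. AttB held 6.15, 29.1 and 33.2% in the same order. DptB held 8.02% in MB10, 17.6% in M3 + 2.5% FEx and 11.1% at 10% FEx, and AttA 2.48, 11.4 and 11.3%. Dro, DptA and AttC together were a minor part of the FEx libraries, Dro being the largest of them at 1.53 and 1.80%.

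The ratio of Diptericin to Attacin counts, which does not depend on a library's depth or scaling, was 0.0704, 0.103 and 0.160 in the MB10 libraries, 0.232, 0.223 and 0.210 in M3 + 2.5% FEx and 0.139, 0.128 and 0.129 at 10% FEx. M3 + 2.5% FEx was thus above both other media without overlap. The mean log2 ratio was higher than in MB10 by 1.07 in M3 + 2.5% FEx and by 0.33 at 10% FEx (two-sided exact permutation tests, p = 0.1 and 0.4). M3 + 10% FEx minus M3 + 2.5% FEx was -0.75 (exact permutation p = 0.1). With 3 libraries against 3 the smallest p is 0.1, and adjusted over the 3 comparisons the values were 0.15, 0.4 and 0.15 (exact permutation, Benjamini-Hochberg). The sums are carried by DptB, AttB and AttD. When the 6 genes were weighted equally, as the mean log2 CPM of each family, the differences from MB10 turned to -1.33 in M3 + 2.5% FEx and -1.64 at 10% FEx (exact permutation p = 0.1 for both), so no direction holds for the families against MB10. With equal weighting M3 + 10% FEx minus M3 + 2.5% FEx shrank to -0.30 (exact permutation p = 0.3). DptB per AttB count was 0.636, 0.630 and 0.550 in the M3 + 2.5% FEx libraries and 0.347, 0.317 and 0.341 in M3 + 10% FEx. The size of this ratio depends on the uncertain split of reads between AttA and AttB.

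Dro, AttA and AttB form a cluster on 2R, with 647 bases between Dro and AttA, and DptA and DptB a second cluster. To see whether genes beside these loci changed too, the nearest expressed genes were read from the same fit. Of 16 neighbours, 3 were called higher in each FEx medium (jef, Jheh3 and CG43175), where 5.59 and 7.34% of all genes tested were. CG18278 beside AttC was called lower in M3 + 2.5% FEx and 0 neighbours at 10% FEx, against 2.93 and 3.63% of all genes tested. In M3 + 10% FEx against M3 + 2.5% FEx 0 of the 16 were called with the fold threshold, by edgeR with or without adjustment of p or by DESeq2, where 2.42% of all genes tested were called higher and 1.05% lower. The gene jef starts the other way 625 bases before Dro and rose from 0.848 CPM to 9.95 and 5.62 CPM in the FEx media with less and more extract. Its log2 fold changes were 3.53 (adjusted p = 1.80e-08) and 2.71 (adjusted p = 2.61e-07). On the other side of the cluster lies Rpn6, a proteasome subunit gene with 0 bases between its annotated end and that of AttB. Rpn6 stood at 324, 310 and 293 CPM, with log2 fold changes of -0.06 (adjusted p = 0.458) and -0.14 (adjusted p = 0.0738).

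Jheh3, a juvenile hormone epoxide hydrolase gene 3686 bases before DptA, rose from 0.412 to 1.94 and 1.18 CPM, with log2 fold changes of 2.22 (adjusted p = 0.000190) and 1.51 (adjusted p = 0.00335). In MB10 this mean level is under 10 counts per library, so the filter in part set the higher direction of Jheh3. Jheh2, a member of the same family and next along the chromosome, was lower, at -0.26 (adjusted p = 0.00385) and -0.66 (adjusted p = 2.31e-06). CG43175, 4630 bases after AttD and on the same strand, rose from 14.3 to 64.1 and 33.4 CPM, with log2 fold changes of 2.16 (adjusted p = 6.43e-09) and 1.23 (adjusted p = 8.44e-07). In the direct comparison jef was lower in M3 + 10% FEx at -0.82 (adjusted p = 0.000981) and CG43175 at -0.94 (adjusted p = 2.50e-05), while Jheh3 was at -0.70 (adjusted p = 0.0681).

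**Figure D4:**
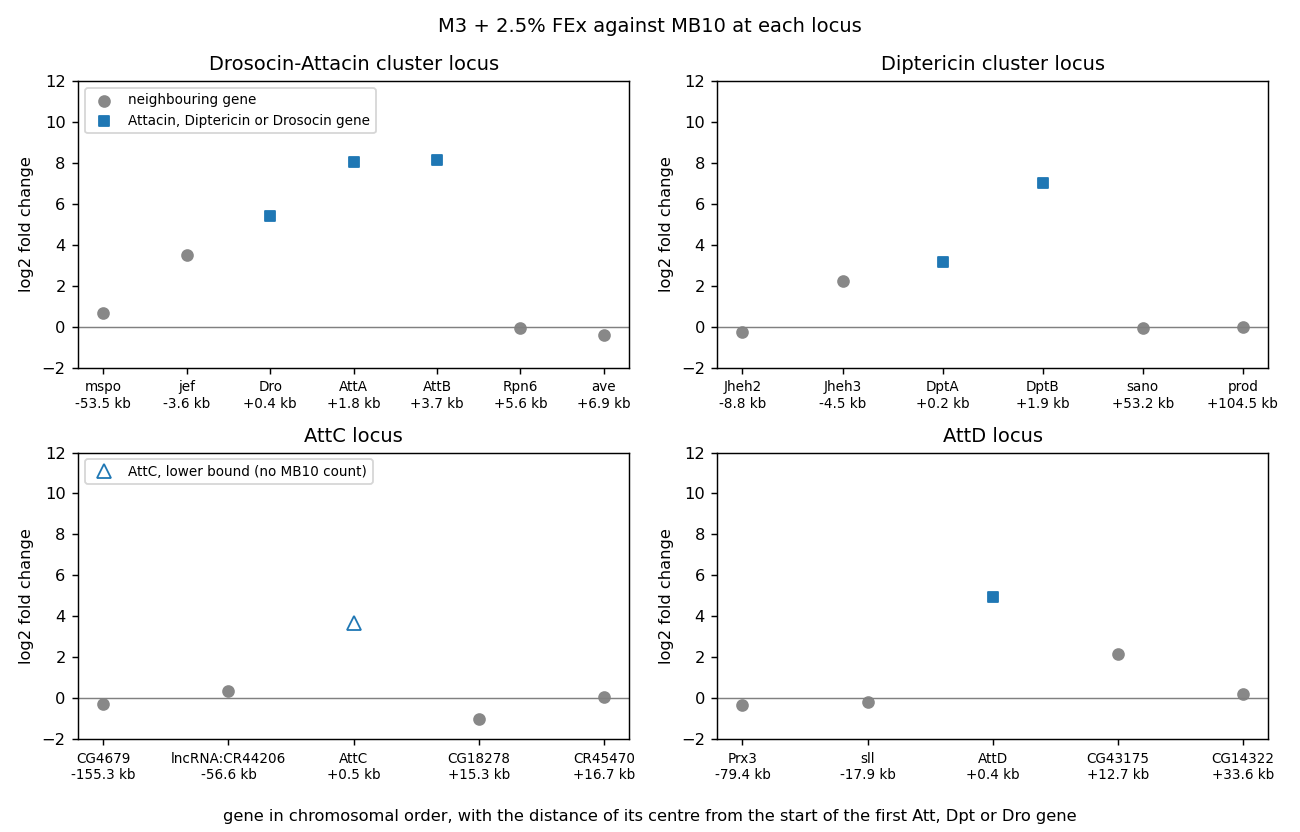
Log2 fold change in M3 + 2.5% FEx against MB10 of the 7 genes (squares, and an open triangle for the lower bound of AttC) and of the nearest 2 expressed genes on each side (grey), in chromosomal order, with the distance of each gene's centre in kb under its name. The squares lie between 3.17 and 8.13, jef at 3.53, Jheh3 at 2.22 and CG43175 at 2.16, and the other neighbours lie between -1.03 and 0.68.

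Other antimicrobial peptide genes rose with the Attacin, Diptericin and Drosocin genes. Of 8 such genes 7 passed the filter, and all 7 were called higher in both FEx media, with medians of 6.78 and 5.998 on the log2 scale. Of all genes tested, 5.59 and 7.34% were called higher, and the median of all genes was -0.04 in both comparisons. CecA2, CecB and Mtk had at most 11 counts in any MB10 library, so the filter in part set their direction too. Defensin (Def) had 0 counts in all 9 libraries. The Cecropin genes CecA1, CecA2 and CecB had log2 fold changes of 7.29, 8.15 and 5.45 in M3 + 2.5% FEx, while CecC had 1.48. Metchnikowin (Mtk), an antifungal peptide gene, was at 6.78, and edin, an infection-induced peptide gene, at 6.73.

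In the direct comparison, 5 of these 7 were lower in M3 + 10% FEx by the adjusted p alone and 3 also by fold (CecA1 at -1.29, CecA2 at -1.31 and edin at -1.35), with a median of -0.80. Of all genes tested, 11.3 and 1.05% were lower by these rules, and the median of all genes was -0.001. The peptide genes that did not pass were CecC at 0.04 (adjusted p = 0.911) and Drosomycin (Drs), which in flies is mainly a Toll pathway target, at -0.05 (adjusted p = 0.671). Drs had log2 fold changes of 7.64 and 7.59 against MB10 and was expressed at 515 ± 34.3 and 497 ± 33.2 CPM (SD, n = 3) in the FEx media.

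Among genes of the Imd pathway itself, 1 sensor gene and 3 negative regulator genes were called and no signalling gene was. Of 29 listed genes 27 passed the filter, and edgeR called 4 higher and 0 lower in each FEx medium (DESeq2 5 and 4 higher, 0 lower, and unadjusted p with the fold threshold 0 lower), where 5.59 and 7.34% of all genes tested were called higher and 2.93 and 3.63% lower. Their median log2 fold change was 0.21 in M3 + 2.5% FEx and 0.22 at 10% FEx. By the adjusted p alone, 17 were higher and 3 lower in M3 + 2.5% FEx and 14 were higher and 6 lower in M3 + 10% FEx. The shares of all genes tested were 22.0% higher and 22.2% lower with less extract and 25.5% higher and 27.6% lower with more. Of the 4 genes called higher, PGRP-LB and PGRP-SC2 had at most 8 counts in any MB10 library, so the filter in part set their direction.

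Of the 4 recognition genes, PGRP-SD, a secreted peptidoglycan sensor gene, was called, with 2.58 in M3 + 2.5% FEx and 1.18 at 10% FEx. For PGRP-LC, the receptor gene, the value was 0.02 (adjusted p = 0.883) in M3 + 2.5% FEx, and it was lower at 10% FEx with -0.50 (adjusted p = 0.00417). PGRP-LE, an intracellular sensor gene, was at 0.53 and 0.81, and PGRP-LA at -0.53 and -0.48, all 4 values with an adjusted p under 0.05.

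Of the 13 signalling genes 0 passed the fold threshold in either FEx medium, by edgeR with or without adjustment of p or by DESeq2. Calls with this threshold were few among all genes tested, at 5.59 and 7.34% higher and 2.93 and 3.63% lower. A result of 0 of 13 therefore does not set this list apart from other genes. The adjusted p alone gave 7 higher and 2 lower signalling genes with less extract, and 5 and 4 with more. For all genes tested this rule gave 22.0% higher and 22.2% lower with less extract, then 25.5 and 27.6%. Rel, which encodes Relish, had the highest value, with 3863 to 5404 counts in MB10, 9080 to 9810 in M3 + 2.5% FEx and 7048 to 7393 at 10% FEx. Its log2 fold changes were 0.90 (adjusted p = 2.82e-05) and 0.57 (adjusted p = 0.000607), and M3 + 10% FEx was lower than M3 + 2.5% FEx at -0.33 (adjusted p = 0.0365). The adaptor gene imd was at 0.23 (adjusted p = 0.0286) and 0.15 (adjusted p = 0.120). The kinase gene IKKbeta was at 0.40 and 0.32, akirin, a nuclear cofactor gene, at 0.27 and -0.01, Dredd at -0.19 and -0.26 and the IKK subunit gene key at -0.28 and -0.32. Fadd, which encodes the adaptor between imd and Dredd, was at -0.13 (adjusted p = 0.182) and -0.22 (adjusted p = 0.0309). The median over the 13 signalling genes was 0.19 and -0.01.

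Negative regulators of the pathway, several of which are themselves Relish targets in flies, included the other called genes. Of 12 listed, 10 passed and 3 were called higher in both FEx media, where 5.59 and 7.34% of all genes tested were. PGRP-LB, a peptidoglycan amidase gene, was at 4.93 (adjusted p = 9.68e-10) and 3.29 (adjusted p = 1.32e-07) on 5 to 8 counts in MB10, and pirk, whose product binds PGRP-LC and imd, at 2.40 (adjusted p = 1.13e-10) and 1.61 (adjusted p = 2.53e-09). The amidase gene PGRP-SC2 had 0 counts in MB10, 19 to 42 in M3 + 2.5% FEx and 17 to 23 at 10% FEx. PGRP-LB and PGRP-SC2 reached the filter's minimum in no MB10 library, so the filter in part set their higher direction. PGRP-LF was at 0.99 and 0.01. Among the genes with small changes were 3 that encode deubiquitinating enzymes. CYLD was at -0.01 (adjusted p = 0.960) and -0.16 (adjusted p = 0.304), scny at 0.07 (adjusted p = 0.366) and 0.22 (adjusted p = 0.00603) and trbd at 0.20 (adjusted p = 0.0164) and 0.32 (adjusted p = 0.000777). In the direct comparison 8 of the 27 pathway genes were lower in M3 + 10% FEx by edgeR's adjusted p and 0 higher (1 higher by unadjusted p and 1 by DESeq2), where 11.3% of all genes tested were lower and 10.5% higher, among the lower genes PGRP-LB at -1.63, PGRP-SD at -1.40, PGRP-LF at -0.98 and pirk at -0.80.

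**Figure D5:**
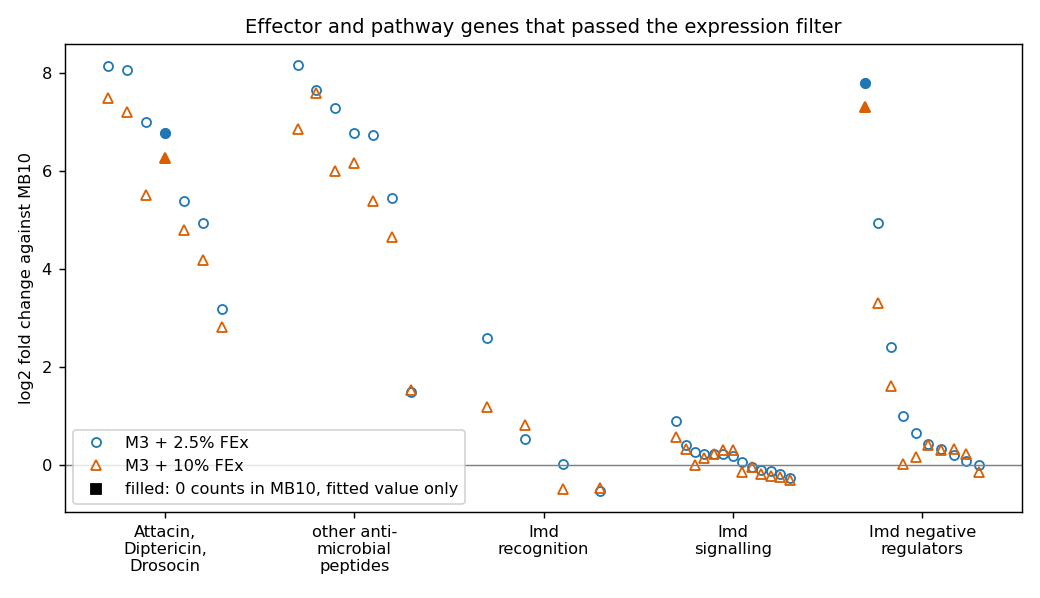
Log2 fold change against MB10 in M3 + 2.5% FEx (circles) and M3 + 10% FEx (triangles) of each gene that passed the filter among the Attacin, Diptericin and Drosocin genes, other antimicrobial peptide genes and 3 lists of Imd pathway genes. Filled marks are genes with 0 counts in MB10, AttC and PGRP-SC2, whose fitted values are no measured sizes. The peptide genes lie between 1.48 and 8.15 and the signalling genes between -0.32 and 0.90.

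Of the other genes tested, the 8 whose profile over the 9 libraries lay nearest to the mean profile of the 7 genes were PGRP-SC2, Dtg, edin, CG14762, Pvf3, CecA1, Esyt2 and Mtk. Likeness was the root-mean-square distance of the centred log2 CPM, which was 0.36 for PGRP-SC2 and 0.63 for Mtk and ran from 0.55 for AttD to 1.40 for DptA among the 7 genes themselves. PGRP-SC2, CG14762 and AttC had 0 counts in MB10. Their log2 CPM there was set by the prior count of 0.5, so the distances of PGRP-SC2 and CG14762 partly reflect this floor. Dtg, a Dpp target gene, had log2 fold changes of 5.53 and 4.27 against MB10 and of -1.26 between the FEx media (adjusted p = 7.29e-07). Pvf3, a PDGF- and VEGF-related growth factor gene, was at 4.67 and 4.94, with 0.27 between the FEx media (adjusted p = 0.0587). Esyt2, an extended synaptotagmin gene, was at 4.64 and 5.09 and was higher in M3 + 10% FEx by 0.45 (adjusted p = 0.00333), which is the direction opposite to that of AttA, AttB, AttD and DptB, the 4 of the 7 genes that passed there. CG14762 had 0 counts in MB10, 11 to 18 in M3 + 2.5% FEx and 9 to 18 at 10% FEx.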

How the data were processed

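RNA of 9 collections of S2R+ cells, 3 from the 1 line of each of 3 media, was sequenced as stranded, paired-end mRNA libraries. Per the submitters' processing notes and the study's methods, the authors trimmed reads with Trimmomatic 0.36, mapped them with HISAT2 2.1.0 to Drosophila melanogaster release 6 and counted them per gene with featureCounts 1.6.4. The deposited table holds these raw counts, without normalization. Settings for strand and for reads with several matches are not given in the sources used here. Counts were tested with the edgeR 4.0.16 quasi-likelihood F test in R 4.3.3, with 1 model of all 9 libraries, TMM scaling, filterByExpr (minimum count 10) and Benjamini-Hochberg adjustment over 8705 genes. Each standard error was taken as the size of the log2 fold change over the root of its F value. DESeq2 1.42.0, other filters, a replicate block and leaving out each library were alternatives. The fit was tested on simulated data in which changed genes had the same fold change in both FEx media. The changed genes were drawn above a minimum MB10 level that AttA, AttC, DptA and Dro did not reach. The simulation therefore covers neither these genes nor the recovery of a difference between the FEx media. CPM per kb used exon lengths, and positions were taken, from the Ensembl BDGP6.54 annotation, a later annotation of the release 6 assembly.

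The 7 genes, the gene lists (other antimicrobial peptides, Imd recognition, signalling and negative regulators, hemocyte and adult tissue markers) and the tests were chosen with earlier results of these data known. Besides the 7 genes, the text names the listed genes with the 3 largest and 3 smallest fold changes in M3 + 2.5% FEx of each list, Rel, PGRP-LC, imd, pirk and PGRP-LB, the 8 nearest profiles (prior count 0.5), the nearest 2 expressed genes beside each locus and overlapping genes. Other listed genes named beside these were chosen after their values were seen.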

Additional observations from a re-analysis of the deposited data

How the results depend on the processing

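Of 475 recomputed values, 288 left out 1 library each. In them 7, 7 and 1 of the 7 genes were called in every case (M3 + 2.5% FEx against MB10, M3 + 10% FEx against MB10 and M3 + 10% FEx against M3 + 2.5% FEx, in this order throughout). Over these fits the genes called ran from 737 to 774, 952 to 1011 and 262 to 327, the log2 fold change of AttA + AttB from 8.02 to 8.23, 7.32 to 7.53 and -0.75 to -0.65, and the difference in the Diptericin to Attacin ratio from 0.79 to 1.38, 0.04 to 0.63 and -0.79 to -0.71. The adjusted p alone called 3844, 4623 and 1896 genes and 4 of the 7 genes between the FEx media. A filter of at least 10 counts in every library left 406, 554 and 152 genes called and 1, 1 and 0 of the 7, since only AttD passes it. Fitting only the compared groups called 6, 5 and 1 of the 7, as AttC in both comparisons with MB10 and DptA at 10% FEx did not pass the filter there, and with AttA + AttB as 1 gene 6, 6 and 1 were called. Equal weighting of the genes reversed the ratio against MB10, to -1.333 and -1.636 (exact permutation p = 0.1 each). DptB over AttC gave no value against MB10, where AttC had 0 counts. Between the FEx media the ratio kept its sign, at -0.303 with equal weighting (exact permutation p = 0.3) and -0.979 for DptB over AttC (exact permutation p = 0.2). DESeq2 called 771, 1056 and 265 genes, of which 689, 910 and 265 were shared with edgeR. No fold change of the 7 genes changed sign or lost its call by adjusted p where the gene was tested, and 4 alternatives brought Dro between the FEx media under 0.05, including no filter (edgeR adjusted p = 0.0255) and fitting only the compared groups (0.0272). Same-numbered replicates did not pair (correlations of -0.729 to 0.202), and with a replicate block 724, 946 and 285 genes and 7, 7 and 1 of the 7 were called. At this depth, changes in AttC and DptA between the FEx media were not resolved.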

Other observations

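Of 11 hemocyte markers that passed the filter, 1 was higher and 2 were lower by edgeR's adjusted p in M3 + 2.5% FEx against MB10, with a median log2 fold change of -0.04, the value of all genes tested. At 10% FEx 2 were higher and 6 lower, with a median of -0.49, and between the FEx media 1 was higher and 6 lower in the medium with more extract. Of all genes tested, 22.0% were higher and 22.2% lower by this rule in M3 + 2.5% FEx and 25.5 and 27.6% at 10% FEx. Between the FEx media these shares were 10.5 and 11.3%. Pxn, an extracellular matrix peroxidase gene, was lower in both FEx media, at -1.22 (edgeR adjusted p = 3.45e-07) in M3 + 2.5% FEx and -2.08 (adjusted p = 2.62e-09) in M3 + 10% FEx. Hml (Hemolectin, a clotting protein gene) was at 0.17 (adjusted p = 0.363) in M3 + 2.5% FEx and lower at -1.89 (adjusted p = 1.66e-06) in M3 + 10% FEx, with 210 to 336 counts in MB10, 310 to 333 and 56 to 94 in the FEx media. He (Hemese) was at 0.17 (adjusted p = 0.675) and higher at 2.03 (adjusted p = 2.36e-05), on 9 to 19, 15 to 21 and 45 to 90 counts. The GATA cofactor gene ush was higher, at 0.50 (adjusted p = 0.00127) and 0.61 (adjusted p = 0.000192). The phagocytic receptor gene eater was at -0.68 (adjusted p = 0.0414) and -0.53 (adjusted p = 0.0847), and the collagen gene vkg at -0.23 (adjusted p = 0.299) and -0.22 (adjusted p = 0.304). Between the FEx media Hml was lower and He higher in M3 + 10% FEx, by -2.06 (adjusted p = 5.13e-06) and 1.85 (adjusted p = 0.000157) on the log2 scale. The part of these shifts in the levels of the Attacin, Diptericin and Drosocin genes was not tested.

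Of the adult tissue markers, 3 passed the filter. The phospholipase C gene norpA, an eye marker, was higher at 0.43 (edgeR adjusted p = 0.00565) in M3 + 2.5% FEx and 0.28 (adjusted p = 0.0383) at 10% FEx. The muscle marker TpnC4, a troponin C gene, was at -0.05 (adjusted p = 0.624) and lower at -0.61 (adjusted p = 5.22e-05). Mlc2, a myosin light chain gene with 7 to 15 counts in a library, was at -0.35 (adjusted p = 0.467) and 0.10 (adjusted p = 0.837). Their part in the results was not tested.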
